A study of Mus musculus with 2 samples.

Results

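Transcripts of 38 genes of mitosis, the kinetochore and human microcephaly were followed in the total RNA of mouse hindbrain. The genes were taken by symbol from a list whose rule used no measured value, although it was chosen with earlier results of these data known. All 38 were matched among the 43346 genes of the deposited tables. They cover Ki-67 and topoisomerase II alpha, condensin, the chromosomal passenger complex, spindle kinases, the kinetochore, the spindle checkpoint, the release of anaphase, cytokinesis, and the centrosomal proteins mutated in human primary microcephaly. Hindbrain of strain B6NCrl at 14.5 days of embryonic age was profiled in 2 libraries, labelled biological replicates 1 and 2 of a single group. No treatment, mutation or second condition was given, so the comparisons available were among genes and between the replicates.

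Per the labels, each library was made from 10 ng of RNA of the hindbrain of 1 pup, with spike-in RNAs added, although the sex is given as pooled and both replicates carry the same donor identifier. The replicates were collected on different days, so collection day and replicate cannot be told apart. P-values between them rest on counting error in the reads of these libraries and do not cover the spread between animals. The samples are whole tissue, in which fewer cells of a type and less RNA per cell cannot be told apart.

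Cells that prepare to divide load condensin and topoisomerase onto their chromosomes, build kinetochores on the centromere histone Cenpa, and hold the spindle checkpoint until every chromosome is attached. The anaphase-promoting complex then marks securin and cyclin B for destruction, separase cuts cohesin, and the central spindle guides cytokinesis. Many of these genes are transcribed late in the cell cycle, through the CHR element (cell cycle genes homology region) and the CCAAT box bound by NF-Y, whereas E2F sites are typical of genes of DNA replication. In the embryonic brain the dividing cells are mostly neural progenitors next to the ventricle and, in the hindbrain, granule cell precursors of the rhombic lip. Loss of centrosomal or spindle pole proteins such as ASPM, WDR62 or CDK5RAP2 in humans leaves a small brain.

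The tables held 33727967 and 32450651 estimated reads on genes in replicates 1 and 2. Of 8 genes that mark hindbrain position, 7 reached at least 1 TPM (a measure of transcripts per length and library) in both replicates, led by Hoxa5 with 141.8 TPM in replicate 1 and 141.4 in replicate 2. Of 6 forebrain genes, 1 did so, Lhx2 with 10.4 TPM in replicate 1 and 15.1 in replicate 2, and 1 was listed at 0 in both. Markers of neural progenitors summed to 2683 TPM in replicate 1 and 2714 in replicate 2, and markers of neurons to 5249 TPM in replicate 1 and 5698 in replicate 2.

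All 38 genes were detected at 1 TPM or more in both replicates, against 34.8% of all genes and 62.5% of the 21474 protein-coding genes. Their levels were modest. The median of their mean TPM was 11.6, below the median of 19.8 over the 13429 protein-coding genes detected in both replicates, and 11 of the 38 lay above that median. At least 10 TPM in both replicates was reached by 20 genes, and 9 stayed under 5 TPM in both. Together they summed to 591 TPM in replicate 1 and 674 TPM in replicate 2, with 0.0862% and 0.0983% of their reads on genes. Fzr1 stood highest at 95.6 ± 4.79 TPM (SD, n = 2), followed by Pttg1 at 39.1 ± 3.95 TPM, and Stil stood lowest at 2.58 ± 0.488 TPM (SD, n = 2 each). Along this order the replicate ranges of neighbouring genes overlapped in 35 of 37 pairs. The exceptions were Fzr1 above Pttg1, and Cdk5rap2 at 8.86 TPM above Ncapg at 6.70 TPM, so most neighbours in the order could not be separated.

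**Figure D1:**
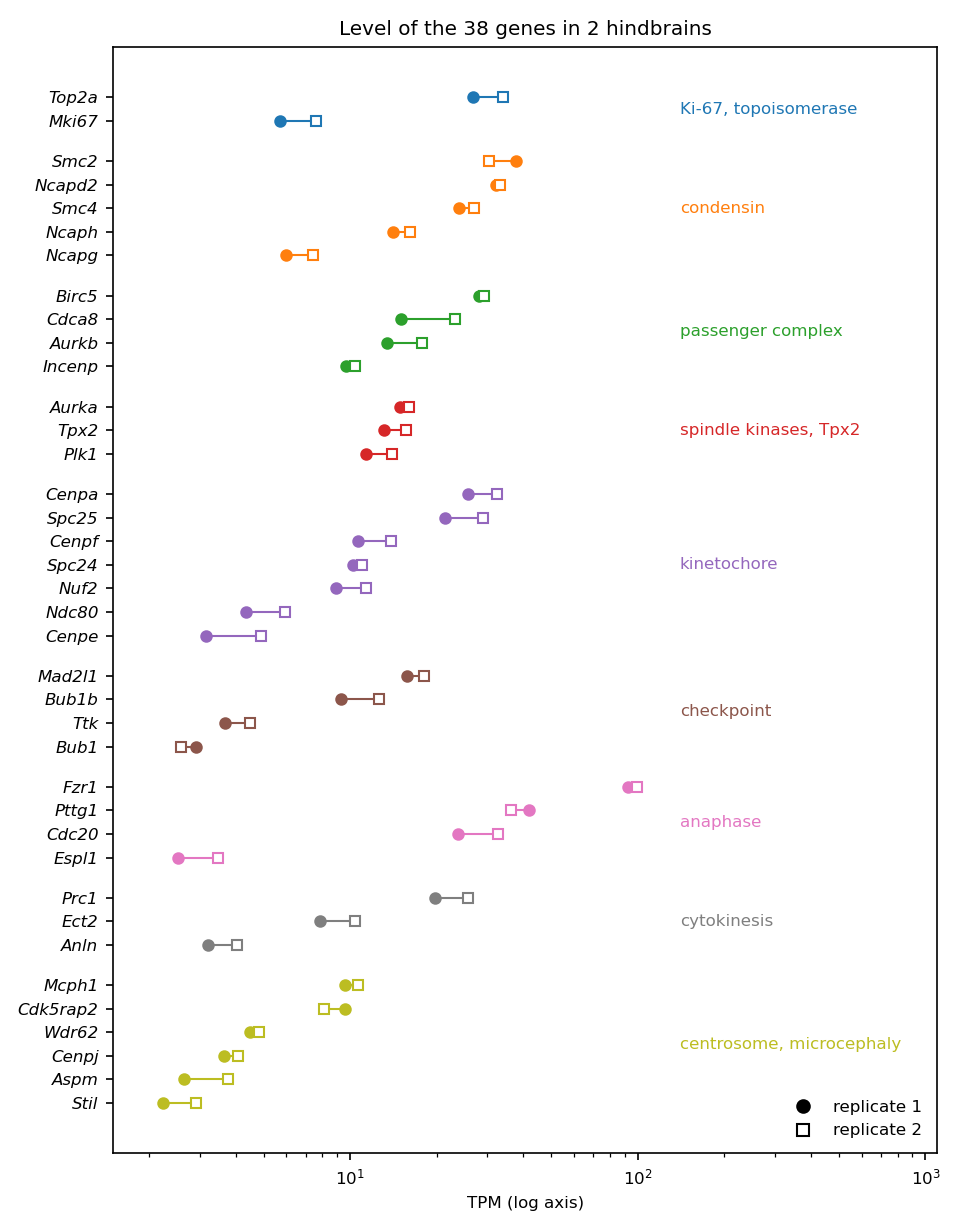
Level of each of the 38 genes in TPM on a log axis, grouped by role; the filled circle is replicate 1 and the open square replicate 2. Fzr1 lies apart at over 90 TPM, 4 of the 9 genes under 5 TPM in both replicates are centrosome and microcephaly genes, and the square lies right of the circle for 34 of the 38 genes.

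The same genes were mostly lower in replicate 1. TPM was lower in replicate 1 for 34 of the 38 genes, where 59.1% of the 15661 genes averaging 1 TPM or more were. The exceptions were Smc2, Bub1, Pttg1 and Cdk5rap2. On counts scaled by each library's gene total, 33 of the 38 were lower in replicate 1, where 45.1% of genes were. To set these differences against counting noise, these scaled counts were compared with an exact two-sided binomial test, adjusted by the Benjamini-Hochberg method over the 17664 genes whose counts averaged 10 or more. A gene is called here where its adjusted p was under 0.05. Of the 38, 22 were called lower in replicate 1 and 2 higher, against 15.7% and 18.7% of all genes tested (34.4% in either direction). The share called lower was 57.9%, and among the 10629 genes with counts in the same range as these it was 17.4%, with 20.1% called higher. The test compares the reads of 2 libraries and not conditions, and there is no further replicate of the difference.

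The differences were small. On the log2 scale of TPM + 1, the difference of replicate 1 from replicate 2 had a median of -0.26 over the 38 genes and -0.05 over all genes averaging 1 TPM or more, and the values ran from -0.59 for Cdca8 to 0.31 for Smc2. On scaled counts the medians were -0.23 for the 38 genes and 0.03 for all genes tested. On scaled counts, none of the 38 was both called and at least 1.5-fold apart, where 5.97% of all genes tested were. The authors' credibility intervals of TPM did not overlap for 16 of the 38 genes, all lower in replicate 1, against 17.9% of genes lower and 6.5% higher. Scaling by the spike-in RNAs gave 29 lower and 1 higher among the 38, but it called 43.7% of all genes tested in either direction. It moved the median of all genes to -0.11 and put 80.6% of all calls lower in replicate 1, against 45.7% with the gene total.

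**Figure D2:**
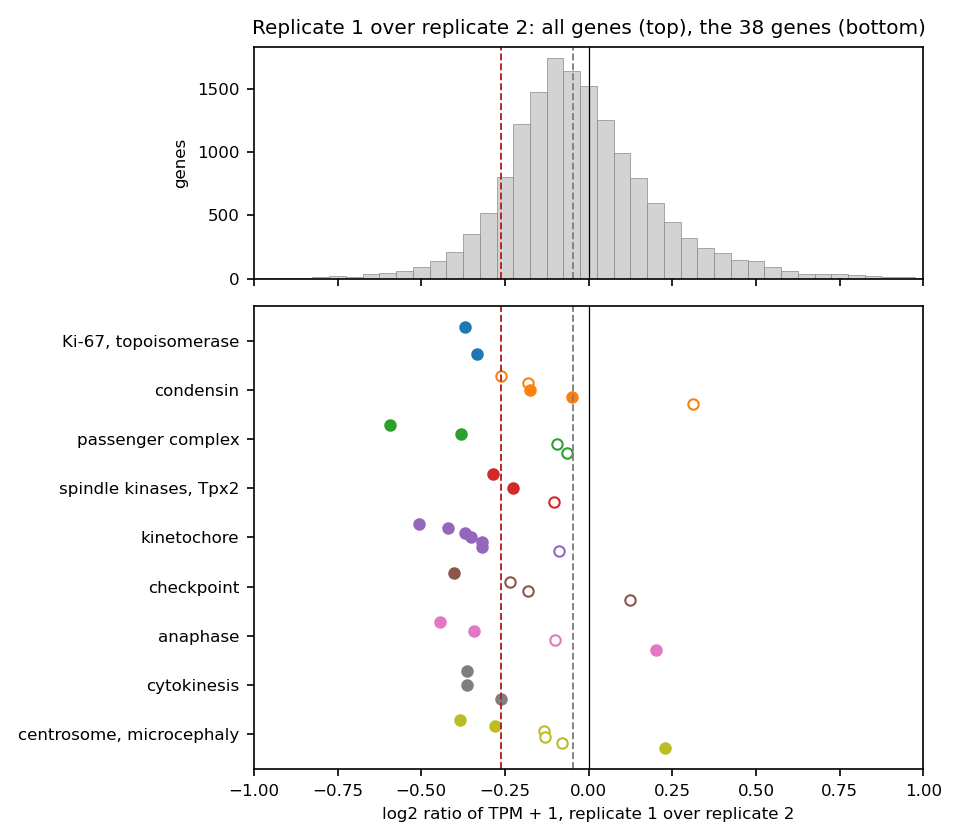
Replicate 1 over replicate 2, as the log2 ratio of TPM + 1, for all genes averaging 1 TPM or more (histogram, top; genes beyond 1 in either direction are not drawn) and for the 38 genes by role (bottom; filled points were called by the exact binomial test on counts, open points were not). The red dashed line is the median of the 38 genes at -0.26 and the grey dashed line that of all genes at -0.05. Every gene lies left of the grey line in the Ki-67 and topoisomerase, passenger complex, spindle kinase, kinetochore and cytokinesis roles. Each of the other roles has a gene to its right.

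The promoters of these genes shared sequence features that the choice of the list did not use. RefSeq promoter windows on GRCm38.p6, of 250 bases before to 50 after the annotated start, were found for 32 of the 38 genes. None was matched for Tpx2, Incenp, Smc4, Mcph1, Aurkb and Spc24. Both strands were searched for the CHR element, spelled TTTGAA, and for its variant, spelled TTTAAA. The NF-Y box was searched as CCAAT. The E2F site was searched in one form as TTCGCGC, and in a further form it was searched as TTCCCGC. The sequences of 8 of them, chosen after their values were seen, are given from 120 bases before to 30 after the start, 5′ to 3′ on the gene's strand. The first 7 are genes with a CHR match whose levels were called lower in replicate 1, and Fzr1 is the gene of highest level and has none. These 8 therefore cannot show how the motif and the calls go together. Cenpe, Nuf2 and Stil had a window without the CHR element and were called lower. Smc2, Ncapg, Aurka and Ttk had it and were not called, and Cdk5rap2 had it and was called higher. Capitals mark the CHR element, its variant and the NF-Y box on either strand, so that ATTGG is the box and TTCAAA is the CHR element as read on the opposite strand. In Cdca8 the CHR letters and a box overlap in the run TTTGAATTGG.
Cdc20, chr4:118437314-118437463, minus strand: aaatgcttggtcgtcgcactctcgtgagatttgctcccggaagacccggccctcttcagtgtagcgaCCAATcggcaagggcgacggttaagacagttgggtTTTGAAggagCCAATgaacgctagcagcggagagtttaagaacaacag
Espl1, chr15:102296173-102296322, plus strand: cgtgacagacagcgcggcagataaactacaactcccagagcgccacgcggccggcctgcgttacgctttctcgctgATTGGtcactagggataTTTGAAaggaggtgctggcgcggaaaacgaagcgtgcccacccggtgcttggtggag
Prc1, chr7:80294331-80294480, plus strand: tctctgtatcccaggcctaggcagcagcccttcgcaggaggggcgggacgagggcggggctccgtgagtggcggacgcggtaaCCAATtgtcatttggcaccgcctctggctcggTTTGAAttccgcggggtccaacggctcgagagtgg
Cenpa, chr5:30666766-30666915, plus strand: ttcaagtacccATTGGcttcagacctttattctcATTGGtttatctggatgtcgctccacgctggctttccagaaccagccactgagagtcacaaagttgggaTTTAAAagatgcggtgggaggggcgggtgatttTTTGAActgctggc
Cdca8, chr4:124936888-124937037, minus strand: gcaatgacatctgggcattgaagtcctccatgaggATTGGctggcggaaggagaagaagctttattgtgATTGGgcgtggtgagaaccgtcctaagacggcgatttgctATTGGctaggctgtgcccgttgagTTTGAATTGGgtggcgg
Top2a, chr11:99024160-99024309, minus strand: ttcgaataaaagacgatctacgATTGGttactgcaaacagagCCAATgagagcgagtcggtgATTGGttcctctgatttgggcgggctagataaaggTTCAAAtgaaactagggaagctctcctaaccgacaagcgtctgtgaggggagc
Aspm, chr1:139454653-139454802, plus strand: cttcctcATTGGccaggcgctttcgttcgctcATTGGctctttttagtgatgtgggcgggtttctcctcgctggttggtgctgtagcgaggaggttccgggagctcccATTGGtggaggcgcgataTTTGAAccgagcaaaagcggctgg
Fzr1, chr10:81378341-81378490, minus strand: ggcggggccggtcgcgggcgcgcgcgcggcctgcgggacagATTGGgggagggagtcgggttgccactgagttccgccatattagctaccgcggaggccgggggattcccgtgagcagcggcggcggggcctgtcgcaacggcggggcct

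TTTGAA was present in 21 of the 32 promoters (65.6%), against 20.2% of the 27025 genes with a window and 13.8% of the 11135 of these averaging 1 TPM or more. CCAAT was present in 23 (71.9%), against 41.1% of all, and both together in 18 (56.2%), against 8.97% of all and 6.97% of expressed genes. The variant TTTAAA was found in 9 promoters (28.1%, against 14.9%). The E2F letters TTCGCGC were in none of the 32, against 1.81% of all and 3.44% of expressed genes. TTCCCGC was in 3 (9.38%), against 5.29% of all and 9.59% of expressed genes. A CHR match lay within 50 bases of the start in 19 promoters (59.4%, against 5.72% of all), a distance chosen after the positions were seen, and 23 of the 29 CHR matches over all 35 windows (79.3%) read in the direction of the gene, against 53.3% of the 6737 matches over all genes. In 18 genes a CCAAT box lay upstream of a CHR match, at 10 to 153 bases with a median of 36.5 over 20 matches. Nuf2, Ncaph, Mad2l1, Pttg1 and Cenpj held none of the 5 motifs. These are letters in a window, and binding was not measured.

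**Figure D3:**
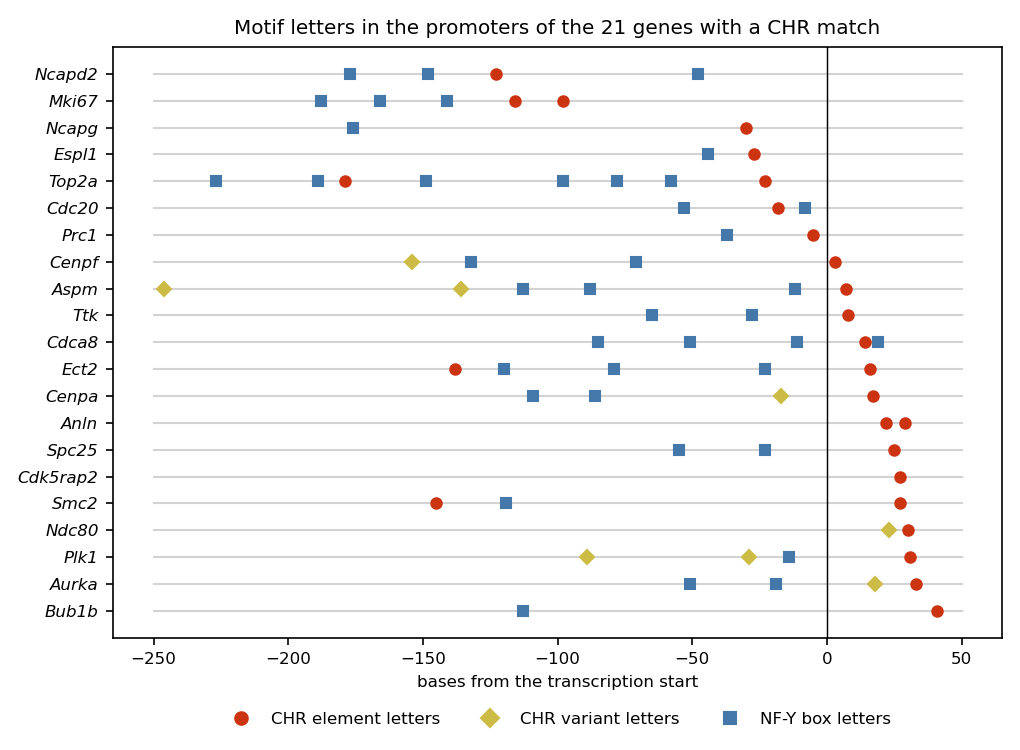
Positions of CHR letters (red circles), the CHR variant (yellow diamonds) and NF-Y box letters (blue squares) along the promoters of the 21 genes with a CHR match, in bases from the annotated transcription start. In most rows a circle lies near the start with squares to its left; Anln, Cdk5rap2 and Ndc80 have no square.

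The 21 genes with TTTGAA had a median log2 TPM ratio between the replicates of -0.34, and the 11 without it had -0.13. Their median levels were 12.2 and 10.1 TPM. The 6 genes without a window are in neither group, and of these Aurkb, Tpx2 and Smc4 were called lower while Incenp, Mcph1 and Spc24 were not called. No such split by motif is given here for all genes, and a link between the motif and the ratio was not tested. Among other genes of division, TTTGAA was about as frequent in spindle, motor and cytokinesis genes (20 of 29, 69.0%), less so in the other kinetochore genes (11 of 34, 32.4%), and present in 4 of 33 replication genes (12.1%). One or other E2F sequence was present in 3 of the 32 promoters here (9.38%), against 6.86% of all and 12.5% of expressed genes. In spindle, motor and cytokinesis genes it was present in 2 of 29 (6.90%). It was present in 13 of 34 other kinetochore genes (38.2%), 5 of 21 genes of the anaphase-promoting complex and cohesin (23.8%) and 20 of 33 replication genes (60.6%). The other microcephaly genes had it in 5 of 24 (20.8%) and condensin II in 1 of 3. CCAAT was present in 23 of the 32 promoters here (71.9%), and also in 20 of 29 spindle genes (69.0%), 22 of 34 other kinetochore genes (64.7%) and 22 of 33 replication genes (66.7%). It was not as frequent in the remaining lists. Anaphase-promoting complex and cohesin genes held it in 9 of 21 (42.9%), other microcephaly genes in 8 of 24 (33.3%) and condensin II in 0 of 3, against 41.1% of all. No test was made of these shares, since the lists were chosen with earlier results in view.

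Both general marks of dividing cells were called lower in replicate 1 (15.7% of all genes tested). Mki67 (chromosome 7), which encodes the Ki-67 protein that coats mitotic chromosomes, had 5.68 TPM in replicate 1 and 7.62 TPM in replicate 2, from 1212 and 1485 reads (exact binomial test, adjusted p = 7.75e-09). Top2a (chromosome 11), the topoisomerase that untangles sister chromatids, had 26.8 TPM in replicate 1 and 34.05 in replicate 2 (exact binomial test, adjusted p = 7.34e-13). Per length, Top2a was thus among the 5 highest of the 38 genes, while Mki67, with a transcript of 10075 bases, ranked 28.

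Condensin is the ring complex that compacts chromosomes. It had 2 of 5 subunits called lower in replicate 1 and none higher (15.7% and 18.7% of all genes tested). Its sum was 113.8 TPM in replicate 1 and 114.0 in replicate 2 over all transcripts. Over transcripts annotated as protein coding it was 53.99 TPM in replicate 1 and 70.4 in replicate 2. The coding TPM was lower in replicate 1 for all 5 subunits, and no such count is given here for all genes. Smc2, an ATPase arm of the ring, had 37.8 TPM in replicate 1 and 30.3 TPM in replicate 2, yet its scaled counts had a log2 ratio of -0.09. Its TPM is carried by a short transcript described further on. Smc4, the partner arm, had 23.8 TPM in replicate 1 and 27.0 in replicate 2 and was called lower in replicate 1 (exact binomial test, adjusted p = 0.0150). The subunits particular to condensin I were Ncapd2 with 32.1 TPM in replicate 1 and 33.2 in replicate 2, Ncaph with 14.1 TPM in replicate 1 and 16.1 in replicate 2, and Ncapg with 6.0 TPM in replicate 1 and 7.40 in replicate 2. Of these Ncapd2 was called lower by a narrow margin (exact binomial test, adjusted p = 0.0477), and Ncapg just missed (0.0502). Ncapg shares 944 exonic bases with Lcorl on the opposite strand, which stood at 43.2 TPM in replicate 1 and 42.8 in replicate 2. Because the strand setting of the counting is not given in the sources used here, reads there cannot be assigned with certainty.

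The chromosomal passenger complex, which corrects faulty attachments and later guides cytokinesis, summed to 66.2 TPM in replicate 1 and 80.7 TPM in replicate 2. Cdca8, which encodes borealin, had 15.02 TPM in replicate 1 and 23.2 in replicate 2, the largest difference of the 38 genes on the log2 scale of TPM + 1 (-0.59; exact binomial test, adjusted p = 7.03e-09). On scaled counts Cenpe was further apart, with a log2 ratio of -0.56 against -0.53 for Cdca8. Cdca8 shares 232 exonic bases with 9930104L06Rik on the opposite strand, at 3.20 TPM in replicate 1 and 4.02 in replicate 2. Aurkb, the kinase of the complex, had 13.5 TPM in replicate 1 and 17.8 in replicate 2 and was also called lower in replicate 1 (exact binomial test, adjusted p = 0.0116). Birc5, which encodes survivin, had 27.99 TPM in replicate 1 and 29.3 in replicate 2, and the scaffold Incenp 9.69 TPM in replicate 1 and 10.4 in replicate 2, and neither was called. Per length, Birc5 thus stood above Incenp with no overlap of their values.

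Of the spindle kinases and their activator, 2 of 3 were called lower in replicate 1 (15.7% of all genes tested). Plk1, the polo kinase that acts from mitotic entry to cytokinesis, had 11.3 TPM in replicate 1 and 14.0 in replicate 2 (exact binomial test, adjusted p = 0.0275). Tpx2, which activates Aurora A on the spindle, had 13.2 TPM in replicate 1 and 15.6 in replicate 2 (exact binomial test, adjusted p = 5.52e-06), whereas Aurka itself had 14.9 TPM in replicate 1 and 16.1 in replicate 2 and was not called.

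Of the kinetochore genes, 6 of 7 were called lower in replicate 1 (15.7% of all genes tested). Their sum was 84.4 TPM in replicate 1 against 108.3 TPM in replicate 2. Cenpa, the histone H3 variant that marks the centromere, had 25.7 TPM in replicate 1 and 32.3 in replicate 2 (exact binomial test, adjusted p = 0.0322). Cenpe, the kinesin that carries chromosomes to the spindle equator, had 3.15 TPM in replicate 1 and 4.90 in replicate 2, from 520 and 738 reads (log2 ratio -0.51; exact binomial test, adjusted p = 2.17e-10). Cenpf, a large protein of the outer kinetochore, had 10.6 TPM in replicate 1 and 13.8 in replicate 2. The Ndc80 complex, which grips microtubules, has 4 subunits. Spc25 had 21.4 TPM in replicate 1 and 29.0 in replicate 2 and Nuf2 8.90 TPM in replicate 1 and 11.4 in replicate 2, and Ndc80 had 4.36 TPM in replicate 1 and 5.92 in replicate 2. Each of these was called lower in replicate 1. Spc24, with 10.2 TPM in replicate 1 and 10.97 in replicate 2, was not. Among these partners Spc25 stood above the others, and Ndc80 below them, in both replicates.

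Of the checkpoint genes, 1 of 4 was called, against 34.4% of all genes tested in either direction. Bub1b, which encodes the BubR1 inhibitor of the anaphase-promoting complex, had 9.31 TPM in replicate 1 and 12.6 TPM in replicate 2 (exact binomial test, adjusted p = 0.000335). Mad2l1, which encodes the Mad2 inhibitor, had 15.8 TPM in replicate 1 and 18.0 in replicate 2, and the Mps1 kinase gene Ttk had 3.67 TPM in replicate 1 and 4.49 in replicate 2. Bub1, a kinase that recruits checkpoint proteins, had 2.91 TPM in replicate 1 and 2.59 in replicate 2, from 187 and 168 reads, and at this depth no difference was detectable.

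The genes that release anaphase held the widest range of levels. Fzr1, which encodes the Cdh1 activator of the anaphase-promoting complex in late mitosis and G1 and also in postmitotic neurons, had 92.2 TPM in replicate 1 and 99.0 in replicate 2 and was not called. Cdc20, its counterpart at the start of anaphase, had 23.8 TPM in replicate 1 and 32.6 TPM in replicate 2 (log2 ratio -0.44; exact binomial test, adjusted p = 0.000111). Espl1, the separase, had 2.52 TPM in replicate 1 and 3.46 in replicate 2 and was called lower as well (exact binomial test, adjusted p = 0.00113). Pttg1, which encodes the separase inhibitor securin, went the other way, with 41.9 TPM in replicate 1 and 36.3 in replicate 2, and was called higher in replicate 1 (exact binomial test, adjusted p = 0.0205).

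All 3 cytokinesis genes were called lower in replicate 1 (15.7% of all genes tested). Prc1, which bundles microtubules of the central spindle, had 19.8 TPM in replicate 1 and 25.7 in replicate 2 (exact binomial test, adjusted p = 1.52e-06). It shares 911 exonic bases with Rccd1 on the opposite strand, at 8.35 TPM in replicate 1 and 7.07 in replicate 2. Ect2, the exchange factor that activates RhoA at the cleavage furrow, had 7.84 TPM in replicate 1 and 10.4 in replicate 2 (exact binomial test, adjusted p = 5.91e-08), and Anln, the anillin scaffold of the ring, had 3.20 TPM in replicate 1 and 4.04 in replicate 2 (exact binomial test, adjusted p = 0.0353).

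The microcephaly genes had the lowest levels as a group, with a median of 4.25 TPM. TPM was lower in replicate 1 for 5 of the 6. Of these 6, 2 were called lower and 1 higher (15.7% and 18.7% of all genes tested). Aspm, which focuses microtubules at the spindle pole, had 2.64 TPM in replicate 1 and 3.75 in replicate 2 (exact binomial test, adjusted p = 1.47e-06). Stil, needed for centriole duplication, had 2.23 TPM in replicate 1 and 2.92 in replicate 2 and was likewise called lower in replicate 1 (exact binomial test, adjusted p = 0.00239). Cdk5rap2, which recruits gamma-tubulin to the centrosome, had 9.63 TPM in replicate 1 and 8.08 in replicate 2 and was called higher in replicate 1 (exact binomial test, adjusted p = 0.000163). It shares 365 exonic bases with the pseudogene Ywhaq-ps3 on the same strand, at 10.1 TPM in replicate 1 and 9.37 in replicate 2. Mcph1, which times chromosome condensation, had 9.58 TPM in replicate 1 and 10.6 in replicate 2. Wdr62, a spindle pole protein, had 4.49 TPM in replicate 1 and 4.80 in replicate 2, and Cenpj, which lengthens centrioles, had 3.64 TPM in replicate 1 and 4.08 in replicate 2, and none of these last 3 was called.

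The length in the deposited tables is weighted by the same transcript estimates that set TPM, so the pair is not independent, and a gene whose TPM sits on a short transcript has both a short length and a high level. Spearman's rho between this length and mean TPM was -0.684 across the 38 genes and -0.232 across the 13429 detected protein-coding genes. With the length of the transcript that led by counts and the TPM of coding transcripts only, chosen after the values were seen, rho was -0.627 across the 38 genes, and among the 10 genes with 1 annotated transcript it was -0.564 for length and TPM. These are descriptions across genes of the same libraries, which are not independent replicates. The shortest gene, Pttg1 at 749 bases, was the second in level, while Aspm at 9866 bases and Mki67 at 10075 bases stood at 3.20 and 6.65 TPM.

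**Figure D4:**
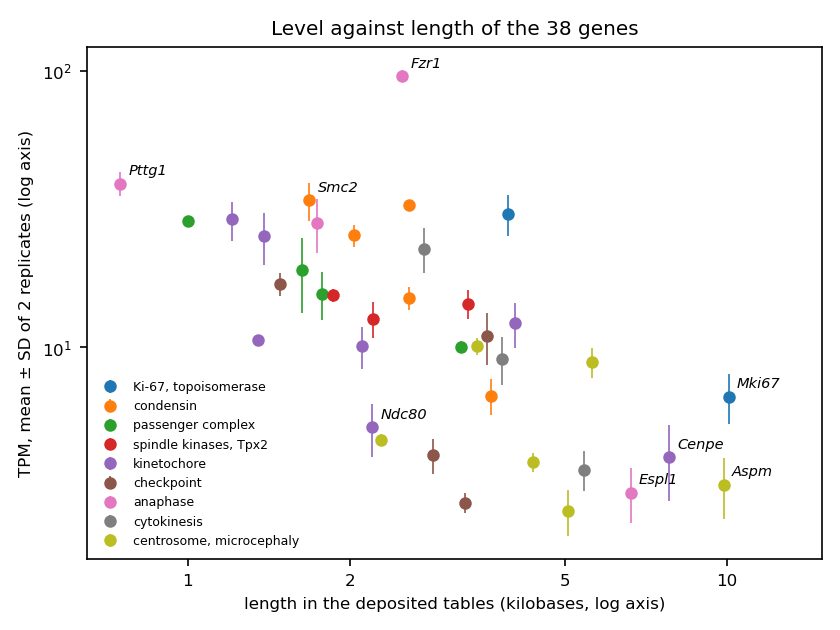
Mean TPM ± SD of the 2 replicates (log axis) against the length in the deposited tables in kilobases (log axis) for the 38 genes, coloured by role. The points run from Pttg1 at upper left to Aspm, Espl1 and Cenpe at lower right, and Fzr1 lies above the rest.

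The transcript tables listed 200 annotated transcripts for the 38 genes, with 1 for each of 10 genes and several for 28. The transcript of highest mean TPM held at least 50% of the gene in both replicates for 29 genes, was the same in both replicates for 36, and was annotated as protein coding for 34. Cenpa and Cdk5rap2 were the 2 genes whose leading transcript differed between the replicates. For Cenpa, Cenpa-202, a nonsense-mediated decay form, held 53.8% of TPM in replicate 1 and 36.1% in replicate 2, and the coding Cenpa-205 41.8% in replicate 1 and 38.8% in replicate 2. For Cdk5rap2, the coding Cdk5rap2-206 held 31.7% in replicate 1 and 31.4% in replicate 2, and the nonsense-mediated decay form Cdk5rap2-201 27.7% in replicate 1 and 32.5% in replicate 2.

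In 4 genes the leading transcript was not coding, namely Smc2, Cenpa, Cenpf and Wdr62, and in each of these a different transcript had the highest mean count. For Cenpa this rested on replicate 2: Cenpa-202 held 50.3% of counts in replicate 1 and 34.9% in replicate 2, and Cenpa-205 46.6% in replicate 1 and 44.8% in replicate 2. Smc2-203, a processed transcript of 643 bases, held 67.8% of the gene's TPM in replicate 1 and 61.0% in replicate 2, but 27.9% of its counts in replicate 1 and 18.0% in replicate 2. By counts the coding Smc2-201 led, with 63.2% in replicate 1 and 69.5% in replicate 2, and coding transcripts of Smc2 summed to 7.17 TPM in replicate 1 and 11.8 in replicate 2. So the higher TPM of Smc2 in replicate 1 was not seen in its coding transcripts. Cenpf-201, a nonsense-mediated decay form of 609 bases, held 39.2% of TPM in replicate 1 and 35.0% in replicate 2 and 4.98% of counts in replicate 1 and 4.63% in replicate 2. Wdr62-207, a retained intron of 648 bases, held 30.2% of TPM in replicate 1 and 38.4% in replicate 2 and 7.54% of counts in replicate 1 and 9.75% in replicate 2. Smc4 was the reverse case, with the coding Smc4-206 of 1163 bases leading by TPM. By counts its nonsense-mediated decay form Smc4-207 led, with 62.0% in replicate 1 and 47.7% in replicate 2.

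In other genes no coding form held the whole. Tpx2-202 held 34.3% of its gene in replicate 1 and 35.5% in replicate 2, and Mcph1-201 47.4% in replicate 1 and 49.5% in replicate 2. Ncapd2-201 held 44.7% in replicate 1 and 51.1% in replicate 2, and there the rest lay mostly on retained introns, with 50.1% of the gene in replicate 1 and 42.3% in replicate 2. Prc1-206 held 56.8% in replicate 1 and 41.1% in replicate 2, while the principal form Prc1-202 held 14.5% in replicate 1 and 34.1% in replicate 2. Ect2-202 held 46.0% in replicate 1 and 60.1% in replicate 2. For Pttg1, which was higher in replicate 1, the 2 leading coding forms differed in opposite directions, with Pttg1-202 at 23.2 TPM in replicate 1 and 27.3 in replicate 2 and Pttg1-203 at 16.9 TPM in replicate 1 and 7.61 in replicate 2. Fzr1-205 held 54.4% of its gene, the highest of the list, in replicate 1 and 57.9% in replicate 2, and its nonsense-mediated decay form Fzr1-201 30.6% in replicate 1 and 24.2% in replicate 2. These shares are the authors' estimates for overlapping transcripts, and the error of such splits is not covered by the 2 replicates.

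Summed over transcripts annotated as coding, TPM was lower in replicate 1 for 36 of the 38 genes, with a median log2 ratio of -0.28. No such count is given here for all genes, so it cannot be read as particular to the 38. In turn the share of TPM on other transcript types was higher in replicate 1 for 19 of the 27 genes that have such transcripts, lower for 7 and equal for 1 (73.1% of those that differed). Its median was 11.3% in replicate 1 and 7.84% in replicate 2. The same direction held over all 7703 detected protein-coding genes with such transcripts, 61.9% of those that differed being higher in replicate 1, with medians of 12.5% in replicate 1 and 10.9% in replicate 2.

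**Figure D5:**
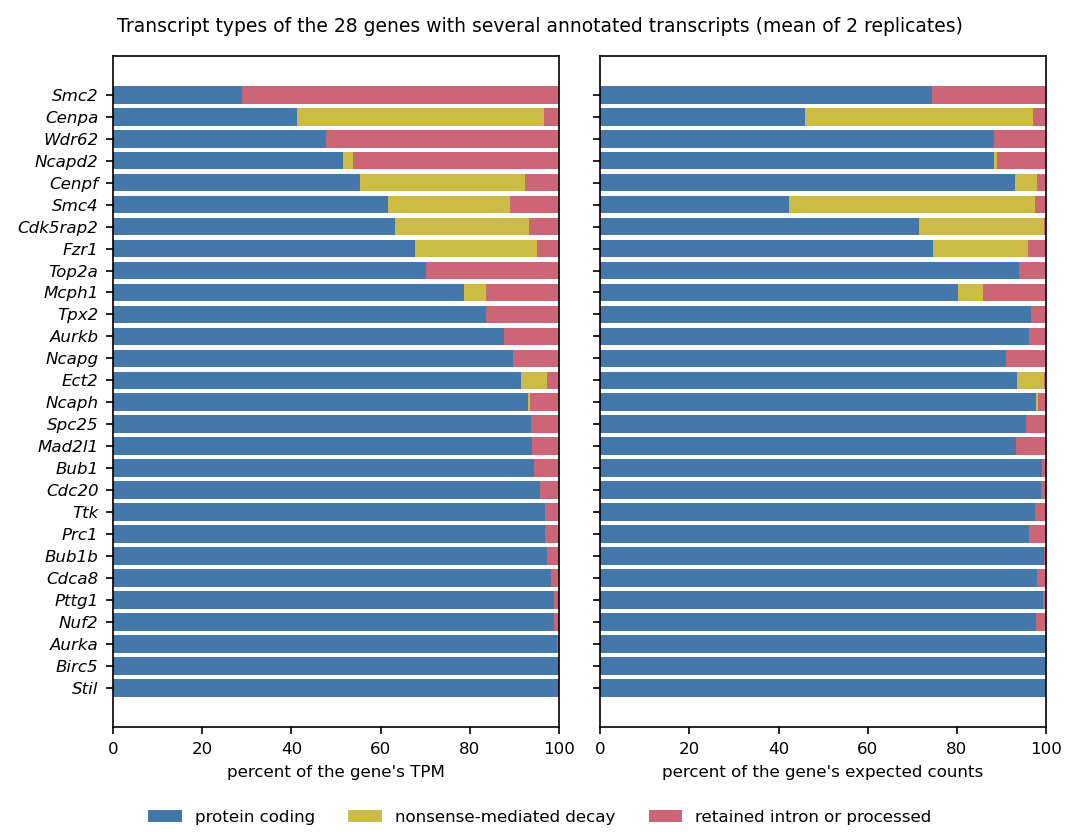
Share of each gene's TPM (left) and of its expected counts (right) on transcripts annotated as protein coding, nonsense-mediated decay, or retained intron and processed, as the mean of the 2 replicates, for the 28 genes with several transcripts. Smc2, Wdr62, Ncapd2 and Cenpf have much smaller coding shares by TPM than by counts, while Smc4 has a smaller one by counts.

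The wider machinery was examined in 6 further lists, which were chosen with earlier results of these data known. Their counts stand against 15.7% of all genes tested called lower in replicate 1 and 18.7% called higher, with a median log2 TPM ratio of -0.05. Of the other spindle, motor and cytokinesis genes, 16 of 36 were called lower in replicate 1 and 2 higher, with a median log2 TPM ratio of -0.24. Among them the mitotic kinase gene Cdk1 had 65.4 TPM in replicate 1 and 71.8 TPM in replicate 2 and was not called. The microtubule polymerase gene Ckap5 had 94.6 TPM in replicate 1 and 88.8 in replicate 2, and Ube2c, the ubiquitin-conjugating partner of the anaphase-promoting complex, had 46.9 TPM in replicate 1 and 54.8 in replicate 2, and neither was called. The abscission gene Cep55, with 3.06 TPM in replicate 1 and 5.03 in replicate 2, was called lower (exact binomial test, adjusted p = 1.37e-05).

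Of the other kinetochore and centromere genes, 8 of 38 were called lower in replicate 1 and 3 higher (15.7% and 18.7% of all genes tested), with a median log2 ratio of -0.14. Zwint, an outer kinetochore protein that is also abundant in neurons, was far above the rest with 639.6 TPM in replicate 1 and 754.1 in replicate 2 (exact binomial test, adjusted p = 1.43e-32). The checkpoint gene Bub3 had 125.6 TPM in replicate 1 and 131.9 in replicate 2 and was not called, and Mad2l2, a subunit of DNA polymerase zeta, had 98.3 TPM in replicate 1 and 92.6 in replicate 2 and was called higher. Oip5, needed to load Cenpa, had 2.53 TPM in replicate 1 and 4.90 in replicate 2 and was called lower (exact binomial test, adjusted p = 0.00426).

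Genes of the anaphase-promoting complex and cohesin stood at a median of 42.5 TPM, with 5 of 24 called lower in replicate 1 and 3 higher (15.7% and 18.7% of all genes tested) and a median log2 ratio of -0.04, beside -0.05 for all genes. Anapc5 led with 303.4 TPM in replicate 1 and 341.4 in replicate 2, ahead of Anapc11 with 180.7 TPM in replicate 1 and 183.0 in replicate 2 and Cdc16 with 134.8 TPM in replicate 1 and 142.0 in replicate 2, all subunits of the complex. Of these only Anapc5 was called, lower in replicate 1 (exact binomial test, adjusted p = 8.66e-09). Fbxo5, which encodes the inhibitor Emi1, had 10.4 TPM in replicate 1 and 7.89 in replicate 2 and was not called.

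Condensin II had 2 of 3 subunits called lower in replicate 1, Ncaph2 with 73.0 TPM in replicate 1 and 88.3 in replicate 2 and Ncapg2 with 2.71 TPM in replicate 1 and 4.21 in replicate 2, while Ncapd3 had 10.5 TPM in replicate 1 and 11.8 in replicate 2 and was not called. Other microcephaly and centriole genes were even, with 4 of 29 called in each direction and a median log2 ratio of -0.08. The coatomer gene Copb2 had 107.0 TPM in replicate 1 and 122.3 in replicate 2 and was called lower. Wdfy3, an adaptor of selective autophagy, had 46.6 TPM in replicate 1 and 46.2 in replicate 2, and Cdk5rap1, a modifier of transfer RNA, 16.0 TPM in replicate 1 and 11.5 in replicate 2, and both were called higher. Tubgcp2, a subunit of the gamma-tubulin ring complex, had 42.4 TPM in replicate 1 and 42.8 in replicate 2 and was not called.

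Replication genes were called lower in replicate 1 in 14 of 42 cases and higher in 0 (15.7% and 18.7% of all genes tested), with a median log2 ratio of -0.18. The sliding clamp gene Pcna had 87.4 TPM in replicate 1 and 96.6 in replicate 2 and the clamp loader gene Rfc2 76.6 TPM in replicate 1 and 84.0 in replicate 2, and neither was called. The helicase subunit Mcm7, with 56.2 TPM in replicate 1 and 62.8 in replicate 2, and its partner Cdc45, with 5.12 TPM in replicate 1 and 7.92 in replicate 2, were called lower in replicate 1.

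The marker lists held 5 to 10 genes each, and their counts stand against 34.4% of all genes tested called in either direction. Of 10 markers of neural progenitors, 3 were called lower and 2 higher in replicate 1, with a median log2 TPM ratio of -0.10. The 2 called higher were the most abundant. Fabp7 had 1847 TPM in replicate 1 and 1806 in replicate 2. Vim had 362.8 TPM in replicate 1 and 369.8 in replicate 2, but its scaled counts were higher in replicate 1 (log2 ratio 0.07). Granule precursor markers summed to 175.9 TPM in replicate 1 and 193.1 in replicate 2, with 2 of 7 called lower and 1 higher. Most of the difference in this sum lay in 1 gene, Mab21l1, with 93.4 TPM in replicate 1 and 109.25 in replicate 2. Mab21l1 was called lower, as was Barhl1 with 20.7 TPM in replicate 1 and 23.4 in replicate 2. Pax6 belongs to both of these lists. Oligodendrocyte precursor markers summed to 110.3 TPM in replicate 1 and 140.1 in replicate 2, with 4 of 5 called lower, led by Olig1 at 73.8 TPM in replicate 1 and 95.8 in replicate 2.

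Meningeal and fibroblast markers went the other way, with sums of 730.4 TPM in replicate 1 and 605.2 in replicate 2 and all 5 called higher in replicate 1, Col3a1 at 307.9 TPM in replicate 1 and 260.1 in replicate 2. Of 5 endothelial markers 2 were called higher and none lower, with sums of 154.0 TPM in replicate 1 and 150.5 in replicate 2. Of 6 microglial markers 2 were called higher and none lower, with sums of 121.6 TPM in replicate 1 and 115.8 in replicate 2. Of 10 neuron markers 3 were called lower and 1 higher. The highest, Tubb3, had 1354 TPM in replicate 1 and 1427 in replicate 2 and was not called. Gap43, the next, had 1160 TPM in replicate 1 and 1366 in replicate 2 and was called lower. Erythroid markers summed to 2589 TPM in replicate 1 and 2476 in replicate 2, with 2 of 7 called lower and 3 higher. The globin gene Hba-a1, the highest, had 1952 TPM in replicate 1 and 2267 in replicate 2 and was called lower, whereas the embryonic globin gene Hbb-y had 534.4 TPM in replicate 1 and 136.8 in replicate 2 and was called higher. Hindbrain position genes were called higher for 5 of 8 and lower for 1, with sums of 394.2 TPM in replicate 1 and 370.4 in replicate 2. The part of cell composition and of the other transcript types in the lower levels of the 38 genes in replicate 1 was not tested.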

How the data were processed

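Total RNA-seq tables of 2 hindbrain libraries were used, 1 gene table and 1 transcript table for each. Per the deposited library descriptions, reads were assigned to mm10 with GENCODE release M4; for the quantification tool and strandedness, the description is not given in the sources used here. Expected counts as deposited are the authors' estimated reads per gene, not normalised and not always whole (5 of the 38 genes). TPM as deposited was scaled by the authors' pipeline over 69691 features, among them 96 spike-in sequences that took 8.15% and 7.72% of TPM in replicates 1 and 2. The authors' FPKM values served as an alternative. The deposited bounds of the credibility interval of TPM were treated as a score set by the authors' tool. Symbols matched 42462 of 43346 genes, and types and places came from GENCODE M21 (GRCm38).

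Here, means and SDs were taken over the 2 replicates. Ratios are replicate 1 over replicate 2, as log2 of TPM + 1 (pseudocount 1). Expected counts were rounded for the exact two-sided binomial test (SciPy 1.17.1), which was tested on simulated data. The simulated counts held counting noise only, so they do not show how the test behaves under the spread between real libraries. TMM factors came from edgeR 4.0.16 and size factors from DESeq2 1.42.0 (R 4.3.3), and no model was fitted because there is 1 group. Library totals were 34929425 and 33510896 estimated reads, and the 38 genes had 168 to 4698 each, which cover counting error only. Exon overlaps were read from GENCODE M21: 10 of the 38 genes overlap another gene's exons, and 6 overlap one that was detected. Promoters came from RefSeq (GRCm38.p6).

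All 38 genes were named; of each further list, the 3 genes of highest mean TPM and the one of largest log2 ratio at an average count of 100 or more; of each marker list, among the 2 highest. Members, lists and rules were chosen with earlier results of these data known, although the rule for the 38 genes used no measured value. No protein sequences were used here, so the planned count of degron letters was not made.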

Additional observations from a re-analysis of the deposited data

How the results depend on the processing

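No paired analysis was possible because the labels give a single group, with no second group that shares its replicate numbers. All 38 genes counted as detected in FPKM, as posterior mean TPM and at limits of 0.5 and 2 TPM, and 28 at 5 TPM. As FPKM the median level was 6.91, and with the authors' posterior mean TPM the condensin sum was 117.2 TPM. Taking each replicate alone, the median level lay between 10.4 and 13.2 TPM. The sums lay between 32.5 and 41.7 TPM for Ki-67 and topoisomerase, 113.8 and 114.0 for condensin, 66.2 and 80.7 for the passenger complex, 39.4 and 45.7 for spindle kinases, 84.4 and 108.3 for the kinetochore, 31.7 and 37.7 for the checkpoint, 160.3 and 171.4 for anaphase, 30.8 and 40.1 for cytokinesis, and 32.2 and 34.2 for the centrosome.

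Of the 38 genes, 24 lower and 2 higher were called with TMM or DESeq2 factors, 16 and 2 with no filter on low counts, and 23 and 2 at a mean count of at least 50. Of all genes tested, 34.9% were called with TMM factors, 35.1% with DESeq2 factors, 11.8% with no filter and 39.7% at the limit of 50. Of those calls, 54.1%, 55.1%, 45.8% and 47.6% were lower in replicate 1, against 45.7% in the test described before. Requiring 1.5-fold left 0 of the 38 genes, 3 other kinetochore genes, 1 spindle gene, 1 replication gene and 0 in the remaining lists. At that limit 5.97% of all genes tested were called. Scaling to spike-ins called 13 of 24 anaphase-promoting complex and cohesin genes, 13 of 29 other microcephaly genes and 28 of 42 replication genes. Scaling to the gene total called 8, 8 and 14 of these. Of all genes tested, spike-in scaling called 43.7% and the gene total 34.4%. The median log2 ratio of the 38 genes lay between -0.35 (spike-ins) and -0.18 (FPKM), and in the 6 settings of pseudocount, unit or scaling for which that of all genes was also taken it was the lower of the pair. Among promoters of expressed genes the shares were 13.8% for TTTGAA, 11.3% for TTTAAA, 42.9% for CCAAT, 3.44% for TTCGCGC and 9.59% for TTCCCGC. The planned search for degron letters was not run.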
